A study of Mus musculus with 10 samples.

Results

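A set of 10 imprinted genes of the growth-regulating network were followed through the differentiation of MC3T3-E1 cells. These were H19, Meg3, Rian, Mirg, Dlk1, Peg3, Plagl1, Grb10, Mest and Ndn. They were chosen by name, as the rows whose Ensembl identifier maps to these symbols, and all 10 had a row among the 40620 genes of the count table. Of the 10, 4 genes (H19, Mest, Grb10 and Plagl1) had enough counts to be tested, and the other 6 were at or near 0 in every library. These 6 are called silent below in the sense of their counts only. MC3T3-E1 is a line of pre-osteoblasts from mouse calvaria, and the cells here were of subclone 4. They were sampled at 5 stages with 2 replicates each, A and B. The first were subconfluent cells and confluent cells at day 0, both in growth medium. The later ones were cells kept for 24 h, 14 d and 21 d in osteogenic medium that held ascorbic acid at 50 µg/ml and β-glycerophosphate at 10 mM. The 10 libraries were paired-end RNA-seq with reads of 51 bases. All came from 1 cell line, and the labels do not say that A and B were separate cultures, so p-values measure the spread between these libraries, which may be technical.

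Genomic imprinting is the expression of a gene from the copy inherited from one parent only, set by DNA methylation laid down in the germ line. Many imprinted genes act on fetal growth, and a set of them is known to be co-expressed in growing tissues and to fall together when growth slows after birth. Plagl1 encodes a zinc finger transcription factor placed upstream of other members, H19 is a long non-coding RNA that carries a microRNA, and Grb10 encodes an adaptor that dampens signalling by the insulin and IGF receptors. Mest encodes a hydrolase-like membrane protein of mesoderm, Dlk1 a Notch-related ligand that holds back preadipocytes, Ndn the growth suppressor necdin, and Peg3 a large zinc finger protein. Meg3, Rian and Mirg are the non-coding RNAs made from the other parental copy of the Dlk1-Dio3 region. RNA-seq counts of whole genes do not tell the parental copies apart, so the values below are levels, not a measure of imprinting.

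The sequences shown first are those of the microRNAs inside H19 and Mest, the expressed members that hold one. H19 (chr7:142575529-142578143, minus strand, lincRNA, ENSMUSG00000000031) holds Mir675 in an exon. Mest (chr6:30723547-30748465, plus strand, protein coding, ENSMUSG00000051855) holds Mir335 in an intron. Mature sequences are from RefSeq on GRCm38.p6, 5′ to 3′, with the seed (bases 2 to 8) in capitals.
miR-675-5p: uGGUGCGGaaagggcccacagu
miR-675-3p: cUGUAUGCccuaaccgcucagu
miR-335-5p: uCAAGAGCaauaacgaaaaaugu
miR-335-3p: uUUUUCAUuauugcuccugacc
These 4 mature forms had 4 different seeds. Mirg (chr12:109729764-109749460, plus strand) spans 14 microRNA hairpins and Rian (chr12:109603940-109661716, plus strand) 3, and the hairpin genes of each with a row held 1 count in all 10 libraries together.

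Promoter sequence was available for 9 of the 10 members, as 13 promoters of 300 bases (250 before to 50 after the start, RefSeq, GRCm38.p6). CG dinucleotides, the sites of DNA methylation, are printed in capitals. The promoters of 3 expressed members, Mest, Grb10 and Plagl1, are shown beside those of 2 silent ones, Peg3 and Dlk1, so that their CG content can be compared.
Mest, chr6:30737800-30738099, plus strand: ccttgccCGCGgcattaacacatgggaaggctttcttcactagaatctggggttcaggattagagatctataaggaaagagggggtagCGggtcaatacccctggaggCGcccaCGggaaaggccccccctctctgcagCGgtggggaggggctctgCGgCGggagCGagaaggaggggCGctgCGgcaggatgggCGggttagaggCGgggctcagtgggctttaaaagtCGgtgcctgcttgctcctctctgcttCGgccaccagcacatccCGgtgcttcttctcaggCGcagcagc
Grb10, chr11:12037371-12037670, minus strand: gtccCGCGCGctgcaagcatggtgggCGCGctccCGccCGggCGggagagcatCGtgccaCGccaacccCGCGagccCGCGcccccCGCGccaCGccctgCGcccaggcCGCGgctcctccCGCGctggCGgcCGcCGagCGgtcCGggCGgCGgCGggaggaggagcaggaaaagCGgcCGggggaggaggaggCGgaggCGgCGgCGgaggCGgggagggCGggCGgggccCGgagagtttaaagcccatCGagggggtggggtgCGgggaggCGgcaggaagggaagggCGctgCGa
Plagl1, chr10:13090582-13090881, plus strand: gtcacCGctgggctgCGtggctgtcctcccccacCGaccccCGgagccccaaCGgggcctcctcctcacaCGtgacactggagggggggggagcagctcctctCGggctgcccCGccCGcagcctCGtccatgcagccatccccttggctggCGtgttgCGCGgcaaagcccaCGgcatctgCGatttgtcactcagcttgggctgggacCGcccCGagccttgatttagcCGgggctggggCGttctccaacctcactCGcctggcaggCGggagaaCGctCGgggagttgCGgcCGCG
Peg3, chr7:6730370-6730669, minus strand: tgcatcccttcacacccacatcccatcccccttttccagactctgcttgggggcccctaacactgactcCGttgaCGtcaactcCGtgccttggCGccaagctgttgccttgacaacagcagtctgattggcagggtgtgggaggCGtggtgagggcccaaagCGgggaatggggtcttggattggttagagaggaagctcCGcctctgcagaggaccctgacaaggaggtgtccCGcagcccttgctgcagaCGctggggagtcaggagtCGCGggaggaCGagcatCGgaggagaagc
Dlk1, chr12:109452573-109452872, plus strand: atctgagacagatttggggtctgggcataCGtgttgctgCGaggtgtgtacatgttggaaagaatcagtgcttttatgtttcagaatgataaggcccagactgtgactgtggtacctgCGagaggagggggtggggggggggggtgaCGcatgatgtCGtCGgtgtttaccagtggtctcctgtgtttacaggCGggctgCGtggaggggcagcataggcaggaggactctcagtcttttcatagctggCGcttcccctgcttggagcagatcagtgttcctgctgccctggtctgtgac
The shown promoters held 17 CG in Mest, 45 in Grb10, 26 in Plagl1, 13 in Peg3 and 9 in Dlk1. The median over the members' 13 promoters was 11, against 7 over all 32851 promoters. The ranges overlapped, with 8 to 45 CG in the promoters of the 3 expressed members (8 and 9 in further promoters of Mest and Grb10) and 0 to 13 in those of silent ones (0 in Rian). The sites were not measured for methylation here. The letters GGGGCCCC, the core of a site that PLAGL1 is known to bind, were searched on both strands (the run reads the same on both). They were found in 1 of the 13 promoters, that of Peg3, starting at base 50 of the sequence above, and in 1.08% of all promoters. The Runx letters TGTGGTT, searched on both strands, were found in 0 of the 13 and in 5.27% of all promoters.

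Total counts per library ran from 44736156 to 162939333. By the index sequences in the column names, subconfluent, confluent and 24 h libraries form one set and 14 d and 21 d libraries a second. The 3 comparisons across these sets (14 d against 24 h, 14 d against confluent and 21 d against subconfluent) cannot be told apart from a difference between sets of libraries. The lanes in the column names cross these sets, and libraries of the same set also differ in lane. A comparison within an index pair is thus not free of a difference in lane. The 24 h replicates stood apart: the SD of the log2 ratio of A to B over 16133 genes was 0.69 at 24 h and 0.29 to 0.33 at the other stages. Most osteoblast markers fitted the label. At 21 d against subconfluent cells 7 of 10 were called higher and 0 lower, beside 16.3% and 11.3% of all genes. Bglap (osteocalcin) and Ibsp (bone sialoprotein) rose the most, by log2 fold changes of 8.94 and 7.43. Col1a1 went from 5655 and 5442 RPKM to 5287 and 4900, and Col1a2 from 3544 and 3478 to 3086 and 2975. All 12 proliferation genes were called lower, beside 11.3% of all genes, Mcm5 and Bub1 the most, by -4.12 and -3.91. Of the markers of other cell types, 6 of 8 for adipocytes, 7 of 8 for muscle and 5 of 5 for endothelium stayed under 1 RPKM in every library, but only 2 of 6 for chondrocytes did. The exceptions were Acta1 of muscle (14.3 to 43.6 RPKM) and, of adipocytes, Cebpa (2.67 to 6.66) and Fabp4 (at most 1.06). At 21 d against subconfluent cells 2 of 3 tested adipocyte markers were called higher and 1 lower. Of 4 tested muscle markers 1 was called lower, and of 2 tested endothelial ones 1 higher. Of 6 tested macrophage markers 1 was called higher, as were 3 of 4 chondrocyte ones. RPKM scales the reads of a gene by its length in kilobases and by the reads of the library, and levels of different genes are compared on this scale only. Macrophage markers summed to 18.5 to 32.5 RPKM in 7 libraries and to 205 to 282 in confluent B, 14 d B and 21 d A, where Tyrobp alone was at 179 to 256. Tyrobp had 0 counts in confluent A. Csf1r (1.83 to 3.19 RPKM), Lyz2 (9.81 to 16.1), Itgam (5.00 to 9.86), Fcer1g (0.31 to 2.56) and Cd68 (0.46 to 0.94) showed no such split. Of the 8 macrophage markers, 3 stayed under 1 RPKM in every library. Whether macrophages were present was not tested. Chondrocyte markers summed to 174 to 176 RPKM in subconfluent, 89.8 to 98.2 in confluent, 47.5 to 64.2 in 24 h, 237 to 244 in 14 d and 114 to 122 in 21 d libraries, highest at 14 d, as H19 was. Most of this sum was Col2a1, a cartilage collagen, at 33.1 to 210.4 RPKM, which was called higher at 14 d than at 24 h, as was Sox9. The part of these markers in the members' values was not tested, and H19, Mest, Grb10 and Plagl1 did not split the libraries as Tyrobp did.

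H19 changed the most of the members. Its RPKM was 1.72 and 2.02 in subconfluent cells (A and B), 2.41 and 2.81 in confluent cells, 9.29 and 9.12 at 24 h, 127 and 163 at 14 d, and 48.6 and 57.1 at 21 d. No stage overlapped with another, and the lowest 14 d library was above the highest of any other stage. The means were 1.87 ± 0.21 (SD, n = 2), 2.61 ± 0.28, 9.21 ± 0.12, 145 ± 25.2 and 52.8 ± 5.97. In subconfluent cells H19 lay above 65.5% of all genes by mean RPKM, and at 14 d above 97.1%. In cultures measured in bulk, a change in the number of cells that make an RNA and a change in the RNA per cell cannot be told apart.

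H19 rose from confluent cells to 24 h with a log2 fold change of 1.90 (SE 0.17, adjusted p = 0.0022), which is 3.74-fold, between stages that share an index pair. From 24 h to 14 d it rose by 4.11 (SE 0.18, adjusted p = 5.4e-05), or 17.2-fold. From 14 d to 21 d it fell by 1.53 (SE 0.17, adjusted p = 0.0016), which made it 2.90-fold lower, again within an index pair. Fitted on the 4 confluent and 24 h libraries alone, the step to 24 h was 1.91 with an adjusted p of 0.14. In that fit 0 of all genes were called, against 443 in the main fit, and the lowest adjusted p of any gene was 0.074. Confluent against subconfluent cells gave 0.48 (SE 0.17, adjusted p = 0.22), which did not pass. Over the whole course H19 was 30.9-fold higher at 21 d than in subconfluent cells, at 4.95 on the log2 scale (SE 0.19, adjusted p = 3.8e-06), and 64.4-fold higher at 14 d than at confluence, with 6.01 (SE 0.20, adjusted p = 7.8e-06). All adjusted p-values here and below are Benjamini-Hochberg values over 20808 genes from the quasi-likelihood test of edgeR. A gene counts as called when its adjusted p is under 0.05 and it differs by over 2-fold.

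**Figure D1:**
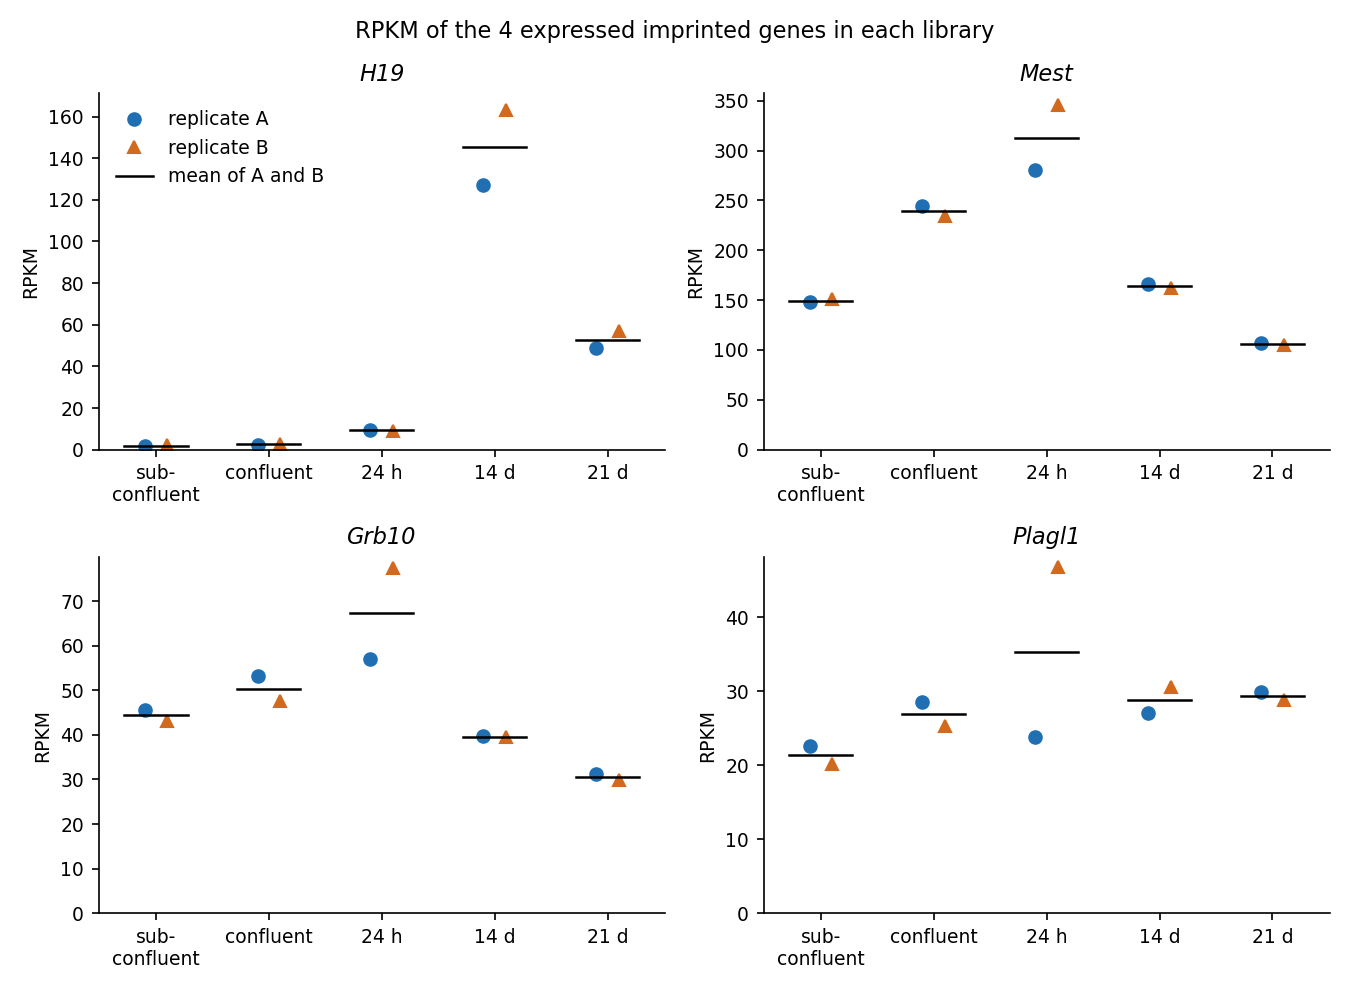
RPKM (y axis, from 0) of H19, Mest, Grb10 and Plagl1 at the 5 stages (x axis), with replicate A as circles, B as triangles and their mean as a line. H19 was at 127 and 163 at 14 d and under 10 before, Mest and Grb10 had their highest mean at 24 h and their lowest at 21 d, and the 24 h replicates of Plagl1 were at 23.8 and 46.8.

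The row of Mir675 moved with its host. Its counts were 26 and 4 in subconfluent libraries, 17 and 34 in confluent ones, 102 and 90 at 24 h, 1466 and 690 at 14 d, and 219 and 550 at 21 d. Per 100 counts of H19 this was 8.44 and 3.67 in subconfluent libraries, 11.9 and 6.43 in confluent ones, 7.17 to 7.41 at 24 h, 7.34 to 7.36 at 14 d and 6.91 to 7.38 at 21 d. The share varied most where the counts were lowest. The hairpin lies in an exon on the same strand, so these fragments cannot be told apart from H19 RNA and are no measure of the mature microRNA. Its log2 fold changes, 4.11 (SE 0.31) from 24 h to 14 d and -1.58 (SE 0.28) from 14 d to 21 d, followed those of H19.

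Igf2, the growth factor gene next to H19 and read from the other parental copy, rose over the same stages. Its RPKM was 0.37 and 0.49 in subconfluent cells, 0.77 and 0.82 in confluent cells, 3.96 and 4.83 at 24 h, 129 and 139 at 14 d, and 127 and 114 at 21 d. Igf2 rose at each of the first 3 steps, by 0.87 (SE 0.16, adjusted p = 0.032), 2.55 (SE 0.16, adjusted p = 0.00056) and 5.06 (SE 0.17, adjusted p = 2.8e-05). From 14 d to 21 d its log2 fold change was -0.23 (SE 0.14, adjusted p = 0.40). The RPKM of H19 was 4.60 and 4.10 times that of Igf2 in the subconfluent libraries, 3.15 and 3.43 times in confluent ones, 2.34 and 1.89 times at 24 h, 0.99 and 1.17 times at 14 d, and 0.38 and 0.50 times at 21 d. The ratio was thus lower at each later stage, with no overlap between stages, and it fell below 1 in both 21 d libraries. The difference between the 2 genes' fold changes was not tested.

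**Figure D2:**
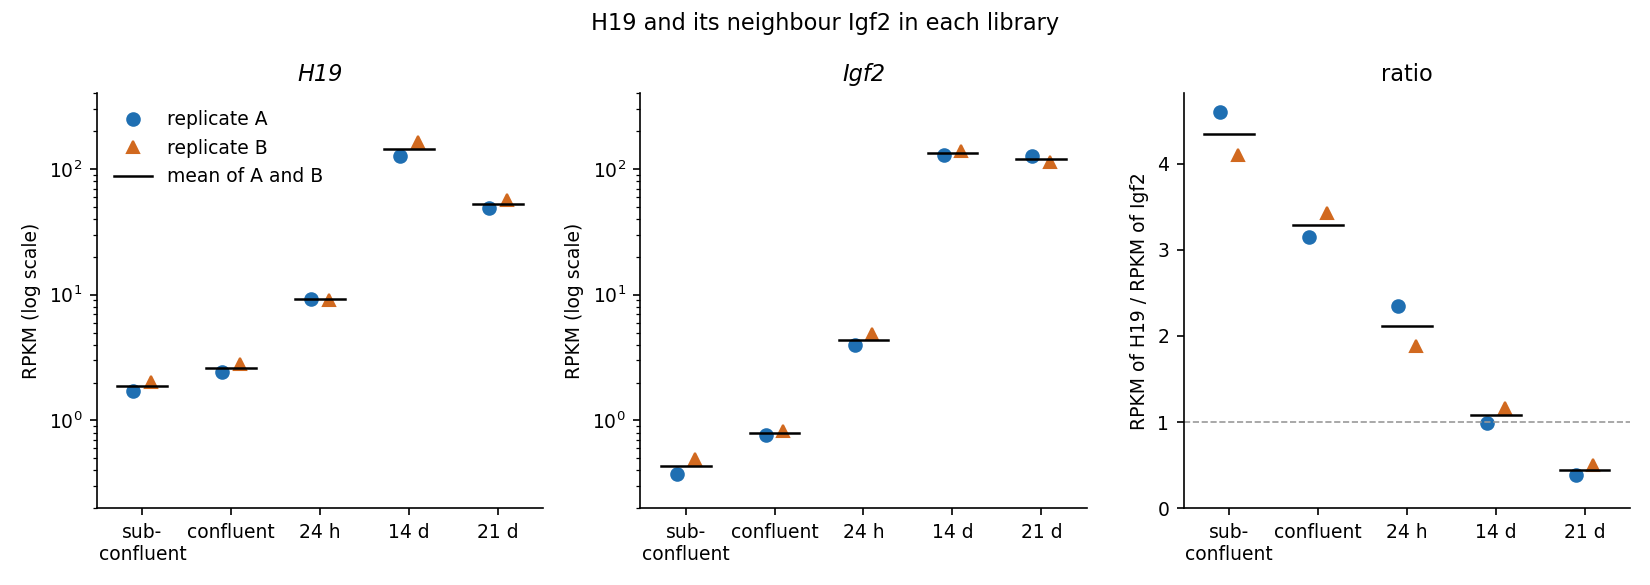
RPKM of H19 and Igf2 on a log scale (left and middle) and the ratio of H19 to Igf2 on a linear scale (right) at the 5 stages, with replicate A as circles, B as triangles, their mean as a line, and the dashed line at a ratio of 1. Both genes climbed to over 100 RPKM at 14 d, and the mean ratio went from 4.35 in subconfluent cells to 0.44 at 21 d.

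Of the other neighbours of H19, Ins2, which encodes an insulin, was at 0 in all 10 libraries, and Mrpl23, a mitochondrial ribosomal protein gene, passed none of the 6 comparisons. Tnnt3 (a troponin of fast muscle) stayed between 0.13 and 0.42 RPKM and passed none either. Lsp1, a leukocyte actin-binding protein gene further along the chromosome, was called higher at 14 d than at 24 h, by 1.29 (SE 0.12, adjusted p = 0.00082), with 3.65 and 3.19 RPKM at 24 h against 8.01 and 7.36 at 14 d.

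Mest was the most abundant member in every stage by mean RPKM, above 96.6% of all genes at its lowest and 98.0% at its highest. Its RPKM was 148 and 151 in subconfluent cells, 245 and 235 in confluent cells, 281 and 345 at 24 h, 167 and 162 at 14 d, and 107 and 105 at 21 d. The stages did not overlap, and the level rose to 24 h and then fell below its start. Mest rose from subconfluent to confluent cells by a log2 fold change of 0.66 (SE 0.10, adjusted p = 0.015) and from confluent cells to 24 h by 0.47 (SE 0.10, adjusted p = 0.039). It fell by 0.80 (SE 0.10, adjusted p = 0.0027) from 24 h to 14 d and by 0.71 (SE 0.10, adjusted p = 0.0045) from 14 d to 21 d. Against subconfluent cells, 21 d was at -0.38 (SE 0.10, adjusted p = 0.014), and 14 d against confluent cells at -0.33 (SE 0.10, adjusted p = 0.038). None of these changes exceeded 2-fold.

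The step from 24 h to 14 d kept its adjusted p under 0.05 whichever library was left out, and had one of 0.14 when only the 24 h and 14 d libraries were fitted. The step from subconfluent to confluent cells gave adjusted p-values of 0.055 to 0.14 without any one library of the subconfluent, confluent, 14 d or 21 d stages, and that from confluent cells to 24 h gave 0.090 to 0.19 without any one of the same libraries. From 14 d to 21 d it was 0.052 without 21 d A and 0.054 without 21 d B. The adjusted p at 21 d against subconfluent cells rose above 0.05 without either library of these stages (0.054 to 0.086), and that at 14 d against confluent cells without either library of the confluent, 14 d or 21 d stages (0.076 to 0.17). Log2 fold changes of Mest moved little in these fits: 0.63 to 0.69 in the step from subconfluent to confluent cells and 0.39 to 0.56 in the step to 24 h.

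Mir335, in an intron of Mest, had a like share of the counts of Mest, 1.99 to 2.25 per 100, in 9 libraries and a lower one in 24 h A. Its RPKM at 24 h was 119 in A and 324 in B, and no change of its row passed the test. Copg2, a coat protein gene that overlaps an exon of Mest on the opposite strand, was at 22.8 to 34.6 RPKM and passed no test, with log2 fold changes from -0.07 to 0.22. Strand was not stated for the counting, so fragments from the shared exon cannot be assigned with certainty. Klf14, a single-exon imprinted gene of this region, was at 0 in all libraries, and Cep41 (a centrosomal protein gene) was at 6.79 to 8.74 RPKM.

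Grb10 (chr11:11930508-12038683, minus strand, ENSMUSG00000020176) followed a course like that of Mest at a lower level. Its RPKM was 45.6 and 43.1 in subconfluent cells, 53.2 and 47.6 in confluent cells, 56.9 and 77.5 at 24 h, 39.6 and 39.5 at 14 d, and 31.2 and 29.9 at 21 d. The 24 h replicates were the furthest apart, and both 21 d libraries lay below all others. Grb10 fell from 24 h to 14 d by 0.63 (SE 0.13, adjusted p = 0.017) and was lower at 21 d than in subconfluent cells, by -0.42 (SE 0.13, adjusted p = 0.027). The first had an adjusted p above 0.05 without 14 d A (0.11) or 14 d B (0.11), and when only the 24 h and 14 d libraries were fitted (0.20). The second had one above 0.05 without subconfluent A (0.10), subconfluent B (0.051), 14 d A (0.051), 21 d A (0.093) or 21 d B (0.13). The steps from confluent cells to 24 h, at 0.50 (SE 0.13, adjusted p = 0.072), and from 14 d to 21 d, at -0.45 (SE 0.13, adjusted p = 0.073), did not pass with all libraries. Both passed when 24 h A (adjusted p = 0.0060 and 0.0043) or 24 h B (0.014 and 0.0038) was left out.

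The genes that GRB10 works with moved in different directions. Of 10 receptor partners listed, 9 were tested, and at 21 d against subconfluent cells 4 rose and 2 fell at an adjusted p under 0.05, beside 27.3% and 23.5% of all genes, with a median log2 fold change over the 9 of 0.47 against 0.04 over all genes tested. Insr, the insulin receptor, rose by 1.01 (SE 0.16, adjusted p = 0.0017), from 2.62 and 2.51 RPKM to 4.76 and 4.75. Grb14, the nearest relative of Grb10, rose by 1.04 (SE 0.13, adjusted p = 0.00044), from 2.05 and 1.66 RPKM to 3.47 and 3.60. Irs1, the docking protein of these receptors, fell by 1.05 (SE 0.09, adjusted p = 8.3e-05), from 26.8 and 26.0 RPKM to 12.2 and 11.3. Igf1r, the receptor for IGF1, fell by 0.92 (SE 0.26, adjusted p = 0.020). Of the neighbours of Grb10, Fignl1, a DNA repair gene, was called lower at 21 d by -2.90 (SE 0.16, adjusted p = 1.4e-05), and Cobl, an actin nucleator gene, higher by 1.15 (SE 0.16, adjusted p = 0.00070). Ddc, the decarboxylase gene beside them, rose from confluent cells to 24 h by 0.88, from 2.68 and 3.11 RPKM to 5.35 and 4.64.

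Plagl1 (chr10:13060504-13131694, plus strand, ENSMUSG00000019817) showed no change that passed the test in the fit of all 10 libraries. Its RPKM was 22.6 and 20.1 in subconfluent cells, 28.6 and 25.3 in confluent cells, 23.8 and 46.8 at 24 h, 27.1 and 30.5 at 14 d, and 29.9 and 28.9 at 21 d. The 24 h B library was the highest of all 10, and 24 h A was below both confluent libraries. The log2 fold change at 21 d against subconfluent cells was 0.58 (SE 0.25, adjusted p = 0.096), and the test of any difference over the 5 stages gave an adjusted p of 0.16. The former did pass when only the subconfluent and 21 d libraries were fitted, at 0.58 (adjusted p = 0.0015). It also passed without the 24 h samples, at 0.57 (0.0019). Without 24 h A it became 0.57 and without 24 h B 0.56. Without 24 h A, Plagl1 was also 0.84 higher at 24 h than in confluent cells (adjusted p = 0.010) and fell by 0.52 to 14 d (0.024), so these rest on 24 h B alone. Without 24 h B they were -0.02 (0.93) and 0.31 (0.072), of the opposite sign. The 14 d libraries against the confluent ones gave 0.31 without 24 h A and 0.29 without 24 h B. This comparison gave 0.30 (adjusted p = 0.039) without the 24 h samples and 0.30 (0.081) when only its own stages were fitted. Gm27741, a small RNA model on the opposite strand, overlaps an exon of Plagl1 and held 721 counts in all 10 libraries against 115851 for Plagl1. Among the neighbours, Ltv1 (a ribosome assembly factor) and Sf3b5 (a splicing factor) fell at 21 d against subconfluent cells, by 0.98 and 0.79, while Phactr2 (a phosphatase regulator) rose by 0.52.

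**Figure D3:**
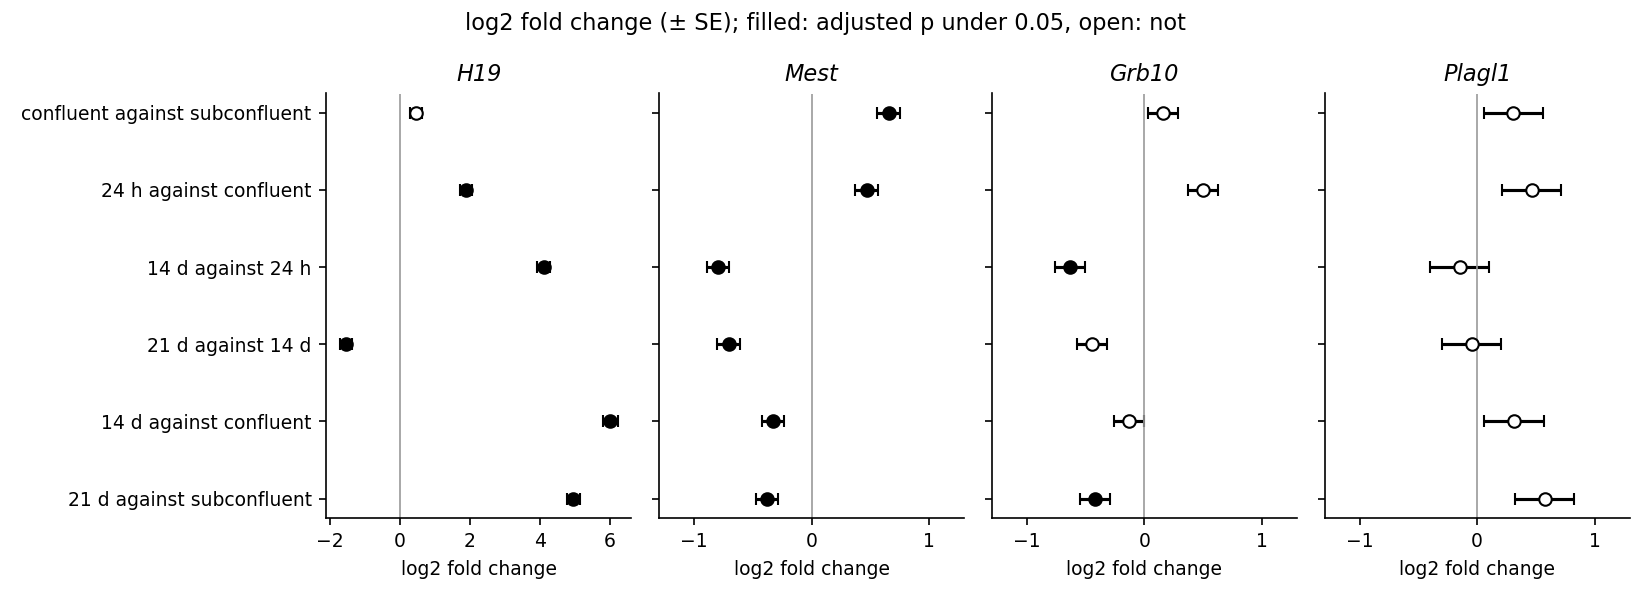
Log2 fold change (x axis, points, with bars of 1 SE) of H19, Mest, Grb10 and Plagl1 in the 6 comparisons (y axis), filled where the adjusted p was under 0.05 and open where not. The x axis of H19 is wider than those of the other 3. H19 passed in 5 of the 6 comparisons, Mest in all 6 with changes of 0.33 to 0.80 in size, Grb10 in 2 and Plagl1 in 0.

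Counted over the 10 members, few were called, and each call was that of H19. In confluent against subconfluent cells 0 of the 4 tested members were called by edgeR, against 1.43% of all 20808 genes tested, and 0 by DESeq2. By edgeR 2 of the 4 had an unadjusted p under 0.05, beside 3566 of the 20808 genes. In each of the other comparisons 1 member was called: 24 h against confluent (all genes 2.13%), 14 d against 24 h (5.98%), 21 d against 14 d (3.97%), 14 d against confluent (13%) and 21 d against subconfluent (27.6%). With an adjusted p under 0.05 and no limit on fold, the members that changed were 1, 2, 3, 2, 2 and 3 in the order confluent against subconfluent, 24 h against confluent, 14 d against 24 h, 21 d against 14 d, 14 d against confluent and 21 d against subconfluent. The shares of all genes were 3.28%, 5.15%, 17.3%, 9.72%, 32.1% and 50.7%. Over the 5 stages, 3 of the 4 tested members (H19, Mest and Grb10) differed, beside 48.9% of all genes. This count differed without subconfluent A, 24 h A or 24 h B. These fits tested 5 members, Mirg included, and which member made the difference is not given here. The median log2 fold change of the 4 went from 0.48 at 24 h against confluent cells to -0.58 at 21 d against 14 d, with all genes at 0.00 and -0.03.

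The order of the expressed members changed with stage. In subconfluent, confluent and 24 h cells it was Mest, Grb10, Plagl1 and H19, from high to low RPKM, with no overlap between neighbours in this order. At 14 d H19 had moved up to the level of Mest, and the libraries of the 2 overlapped (162 and 167 for Mest, 127 and 163 for H19). At 21 d the order was Mest, H19, Grb10 and Plagl1, and those of Grb10 and Plagl1 overlapped. The members did not share 1 course. Over the 10 libraries, which share their stages and depth, log2 CPM (counts per 1e6 counts of the library) of Mest and Grb10 had a Pearson r of 0.95, H19 with Mest -0.26 and with Grb10 -0.34, and Plagl1 with H19 0.56, with Grb10 0.32 and with Mest 0.30. The r of H19 with Igf2 was 0.98. The ratio of Mest to Grb10 RPKM ran from 3.25 to 4.93.

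Among 16745 genes with a stage mean of at least 1 RPKM, those most like each member over the 10 libraries were found by the same r, as a description only. For H19 these were Slc31a2 (a copper transporter, 0.995), Tbx2 (a T-box transcription factor, 0.993) and Wnt11 (a Wnt ligand, 0.991). For Mest they were Suclg2 (a succinyl-CoA ligase subunit, 0.967), Lum (the matrix protein lumican, 0.962) and Dnajb4 (a heat shock co-chaperone, 0.954). For Grb10 they were Stk3 (a kinase of the Hippo pathway, 0.959), Mest itself (0.950) and Pdp1 (a mitochondrial phosphatase, 0.942). For Plagl1 they were Ror1 (a Wnt receptor, 0.969), Gm6768 (0.957) and Ncoa4 (the ferritin receptor of autophagy, 0.939).

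The 6 remaining members were silent or nearly so. Meg3 (chr12:109541001-109571726, plus strand), Dlk1 (chr12:109452823-109463336, plus strand) and Ndn (chr7:62346569-62350262, plus strand) had 0 counts in each of the 10 libraries. That is 0 of 1015103989 counts, which allows up to 0.0030 CPM over all libraries together (3 counts, counting error only). Per library, the limit of 3 counts was 0.018 to 0.067 CPM. Peg3 (chr7:6703892-6730431, minus strand) had 6 counts in all, at most 2 in a library, and was at 0 in 5 libraries.

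Rian and Mirg, though read from the same region as Meg3, had a few counts. Rian had 6 and 2 in subconfluent libraries, 3 and 1 in confluent ones, 0 and 2 at 24 h, 2 and 3 at 14 d, and 2 and 3 at 21 d. Mirg had 3 and 0, 1 and 1, 2 and 2, 9 and 3, and 3 and 11 in the same order. The highest RPKM of any of these 6 members in any library was 0.035, in Mirg. Over the 3 stages with the first index pair Mirg was at 0.0137 CPM, and over 14 d and 21 d at 0.0729 CPM, which cannot be told apart from the difference between library sets. In a fit with no filter on low counts, Mirg gave a log2 fold change of 2.47 at 21 d against subconfluent cells with an adjusted p of 0.077 and 2.66 at 14 d against confluent cells with 0.11. Mirg also passed the filter in most fits without 1 library, where a stage of 1 sample loosens it. It did so through the 11 counts of 21 d B, so these fits are not read as a change of Mirg.

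A count of 0 was not rare in these files. Of all 40620 genes, 26.9% were at 0 in every library, as were 15.4% of the 21389 protein-coding genes and 39.4% of 2499 lincRNA genes. In 12 widely expressed genes looked at for this reason, such as Actb and Gapdh, the lowest count in any library was 1045. Of the 40620 genes, 83 had 3 counts or fewer in one replicate and over 10 CPM in the other of the same stage. None of the members was among them. The 6 silent members, at 11 counts or fewer in a library, were far under 10 CPM and could not be. This check thus says nothing of their counts of 0. Nor do the 12 widely expressed genes, and a loss of counts at single loci was not tested.

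**Figure D4:**
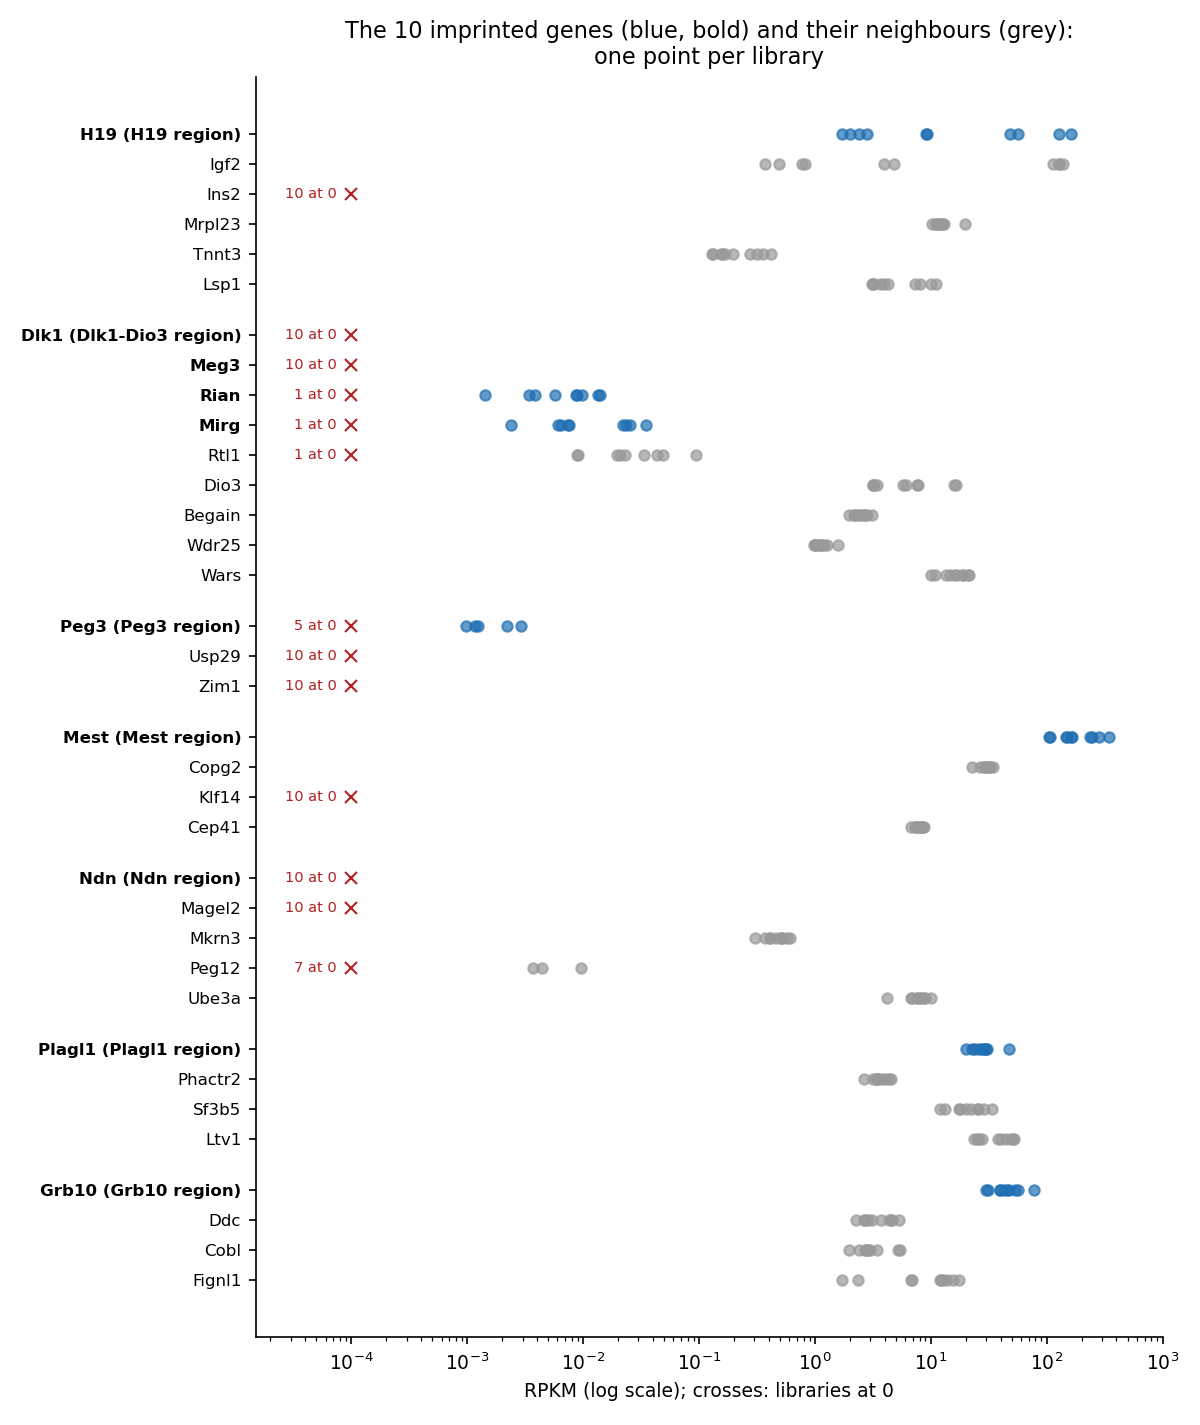
RPKM on a log scale (x axis) of the 10 members (blue, bold names) and their neighbours (grey), grouped by genomic region, with 1 point for each of the 10 libraries. Crosses, drawn at the left and not to scale, give the number of libraries at 0. Dlk1, Meg3 and Ndn were at 0 in all 10, while Dio3 and Wars in the Dlk1-Dio3 region and Ube3a in the Ndn region were above 3 RPKM in every library.

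Other genes of the Dlk1-Dio3 and Ndn regions were expressed. In the Dlk1-Dio3 region, Rtl1, a retrotransposon-derived gene, had 0 to 12 counts in a library, but Dio3, the enzyme that inactivates thyroid hormone, was expressed and changed. Its RPKM was 15.7 and 16.5 in subconfluent cells, 6.08 and 5.71 in confluent cells, 3.20 and 3.20 at 24 h, 3.18 and 3.46 at 14 d, and 7.58 and 7.83 at 21 d. Dio3 was called lower in confluent than in subconfluent cells, by -1.48 (SE 0.11, adjusted p = 0.0013), and higher at 21 d than at 14 d, by 1.14 (SE 0.11, adjusted p = 0.00099), both within an index pair. Begain, Wdr25 and Wars, upstream of Dlk1, were at 1.96 to 3.12, 0.98 to 1.59 and 10.1 to 21.3 RPKM. In the Peg3 region, Usp29 and Zim1 were at 0 in all libraries, where Peg3 had 6 counts in total. In the Ndn region Magel2 was at 0 in all libraries and Peg12 had 4 counts in total, whereas Mkrn3 was at 0.30 to 0.61 RPKM and Ube3a, a ubiquitin ligase gene that flanks them, at 4.17 to 10.0.

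Beyond the members, 40 other imprinted genes were listed, of which 38 had a row and 23 were tested. At 21 d against subconfluent cells 12 of the 23 rose and 6 fell at an adjusted p under 0.05, beside 27.3% and 23.5% of all genes. Of the 23, 6 were called higher and 3 lower, beside 16.3% and 11.3% of all genes. Their median log2 fold change was 0.47 against 0.04 over all genes tested. In the comparison of successive stages 1 of the 23 was called each time, beside 1.43%, 2.13%, 5.98% and 3.97% of all genes. These were Dio3 lower at confluence, Igf2 higher at 24 h and at 14 d, and Dio3 higher at 21 d. At 14 d against confluent cells 3 of the 23 were called, beside 13% of all genes. Igf2 and Tspan32 were higher and Peg10 lower.

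The genes called higher at 21 d than in subconfluent cells were Igf2 (8.26), Tspan32, Cdkn1c, Zrsr1 (a splicing factor gene, 1.53, adjusted p = 0.024), Cobl (1.15) and Airn (the antisense RNA at Igf2r, 1.06, adjusted p = 0.0028). Of these, Tspan32 and Cdkn1c, the gene of a cyclin-dependent kinase inhibitor, stayed at or below 0.564 and 0.117 RPKM in every library, and Cdkn1c never had more than 18 counts. Those called lower were Asb4 (-1.84, adjusted p = 0.021), Peg10 (a retrotransposon-derived gene, -1.81, adjusted p = 0.00063) and Slc38a4 (an amino acid transporter, -1.17, adjusted p = 0.0077). Peg10 went from 3.78 and 3.58 RPKM to 1.03 and 0.91, while Asb4 and Slc38a4 were under 0.45 RPKM throughout.

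Of 12 genes listed as imprint maintenance factors, 11 were tested. At 21 d against subconfluent cells 5 of these fell and 0 rose at an adjusted p under 0.05, beside 23.5% and 27.3% of all genes, and the other 6 did not pass. Their median log2 fold change was -0.45, against 0.04 over all genes tested. Uhrf1, which guides DNMT1 to newly copied DNA, fell by 3.91 (SE 0.17, adjusted p = 6.0e-06), from 82.4 and 84.1 RPKM to 4.25 and 5.94. Dnmt1, the maintenance methyltransferase, fell by 2.58 (SE 0.18, adjusted p = 2.8e-05), from 54.7 and 54.3 RPKM to 7.93 and 8.92. The 12 proliferation genes fell over the same comparison with a median of -3.26, and the part of cell division in these changes was not tested. Zfp57, a zinc finger protein that binds methylated imprinted alleles, was at 2.11 to 4.72 RPKM, with -0.17 at 21 d against subconfluent cells. It rose from 14 d (2.15 and 2.11 RPKM) to 21 d (3.87 and 3.62), by a log2 fold change of 0.74.

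Dlk1 had 0 counts, but its relative Dlk2 was expressed. Of the 12 genes listed for the Notch pathway that both act on, Dlk2 included, 6 stayed under 1 RPKM in every library. Dlk2 was at 22.0 and 23.3 RPKM in subconfluent cells and at 5.18 and 5.35 at 21 d, a fall of 1.99 (SE 0.14, adjusted p = 3.5e-05). All 12 were tested, and 5 were called higher and 3 lower at 21 d against subconfluent cells, beside 16.3% and 11.3% of all genes. The median log2 fold change of the 12 was 1.17, against 0.04 over all genes tested. Notch3, a receptor, rose by 2.47 (SE 0.40, adjusted p = 0.0017), from 1.28 and 1.13 RPKM to 6.20 and 6.11. Jag2, a ligand, rose by 2.22 (SE 0.48, adjusted p = 0.0066) but stayed at or below 0.196 RPKM, and Jag1, another ligand, fell by 1.39 (SE 0.15, adjusted p = 0.00027), from 7.03 and 6.54 RPKM to 2.49 and 2.31.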

How the data were processed

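RNA-seq libraries of 10 MC3T3-E1 samples were analysed. The authors deposited whole-number read counts per Ensembl gene and RPKM values. Per the labels' processing notes, the tools were FastQC, TopHat2 2.0.9 and R 3.0.1 with genome build mm10, and the counting tool and strand are not given in the sources used here. The deposited RPKM used a read number 1.44 to 1.60 times smaller than the sum of counts. In 2 libraries 2 lanes had been merged, and the merged count column was used. Identifiers were matched to GENCODE vM21 on GRCm38. Counts were filtered with filterByExpr, leaving 20808 genes, normalized by TMM and fitted with edgeR 4.0.16 in R 4.3.3 by the quasi-likelihood method, as 1 model of 5 groups, with 6 comparisons and an F test, Benjamini-Hochberg adjusted. SE was taken as the size of the log2 fold change over the root of its F. Scripts were tested on simulated data. Limma 3.58.1 and DESeq2 1.42.0 were alternatives. The members and lists were chosen with earlier results of these data known. Named genes were all members, neighbours in their regions, other imprinted genes called in a comparison (at most 5 each way), the 2 largest changes each way of the receptor partner, imprint factor, Notch, osteoblast and proliferation lists, and the 3 genes of highest r. The widely expressed genes checked for counts of 0 were chosen after values were seen. Other columns of per-sample values left unused numbered 0. Deposited tables of comparisons were not used.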

Additional observations from a re-analysis of the deposited data

How the results depend on the processing

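The 24 alternatives were other scalings (DESeq2 size factors, upper-quartile factors, library size alone), other tools (DESeq2, limma-trend on log2 RPKM with a pseudocount of 1 or 0.1), other filters, only the stages compared, the sum of the lanes, no 24 h samples, a replicate block, other fold limits and each library left out. Of the 520 recomputed log2 fold changes of the 4 tested members, 446 kept direction and side of the threshold, 50 lost an adjusted p under 0.05, 17 gained one and 7 reversed. All 7 were of Plagl1 and none passed the test. Its log2 fold change in 21 d against 14 d (-0.05) became 0.019 under upper-quartile factors, 0.039 with library size alone, and 0.030 and 0.031 with limma-trend at a pseudocount of 1 and 0.1, and ran from -0.15 to 0.058 with 1 library left out. In the same way, 24 h against confluent (0.46) ran from -0.019 to 0.84, and 14 d against 24 h (-0.15) from -0.52 to 0.31. Counts of members called moved as follows. With any fold change they were 1 in confluent against subconfluent, 2 in 24 h against confluent, 3 in 14 d against 24 h, 2 in 21 d against 14 d, 2 in 14 d against confluent and 3 in 21 d against subconfluent. With more than 4-fold they were 0 in 24 h against confluent and in 21 d against 14 d. Fitted on the 4 libraries of 24 h and confluent cells alone, the count was 0 by edgeR, H19 having an adjusted p of 0.14. That fit called 0 of all genes, with a lowest adjusted p of 0.074. Leaving out 1 library leaves a stage of 1 sample, which loosens the filter. Most of these fits tested 5 members, Mirg passing the filter through its 21 d B library. Their counts of members differed without subconfluent A in 21 d against subconfluent cells. Over the 5 stages they differed without subconfluent A, 24 h A or 24 h B, and which member made that difference is not given here. The rise of Mest from confluent cells to 24 h had adjusted p-values of 0.077 to 0.57 in 6 fits other than those without a library, and that from subconfluent to confluent cells 0.063 with library size alone. Under upper-quartile factors Mest and Grb10 at 21 d against subconfluent cells had adjusted p-values of 0.068 and 0.096. Library size alone shifted the median of all genes by up to -0.23 (log2, in 14 d against confluent), and no called change of a member reversed. The ratios of Rian and Mirg to Meg3 that had been planned could not be computed, as Meg3 is at 0. The replicate letters were not shown to pair the samples: the deviations of same-letter libraries had correlations from -0.18 to 0.10 over 10 pairs of stages. With a replicate block the members called were 0 in confluent against subconfluent and 1 in each other comparison, and 3 differed over the 5 stages. With that block Mest had an adjusted p of 0.085 at 24 h against confluent and 0.066 at 14 d against confluent. With 2 replicates per stage, an exact permutation test of 1 gene cannot reach 0.05, so the tests borrow the spread of other genes.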
